A study of Mus musculus with 12 samples.

Results

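Meis1, Meis2, Meis3, Pbx2, Pbx3, Pbx4, Pknox1 and Pknox2 encode homeodomain cofactors of Hox proteins, and their transcripts were compared across the reproductive tracts of Hox mutant mice. The genes were taken by symbol, and each matched 1 row in every one of the 12 RNA sequencing libraries. They are thus 8 of the 31618 genes listed for the female libraries and 8 of the 31669 genes listed for the male libraries. All 8 were measured in both sexes, where measured means that a gene varied among the 6 libraries of its sex and that its highest level, where this could be read, reached 20 normalised reads. No library was at the lowest recorded value for any of them.

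The series was collected to describe the molecular effects of mutating Hoxa9,10,11 and Hoxd9,10,11 in mice of the CD1/129 background aged 3 to 7 months, with females taken in diestrus. The female libraries were from the uterus of 5 genotypes and from the WT oviduct, and the male libraries were from the WT caudal epididymis and from vas deferens, again of 5 genotypes. The genotypes were WT, Hoxa9,10,11-/- (Hoxa-null), Hoxd9,10,11-/- (Hoxd-null), Hoxa9,10,11-/-d9,10,11+/- (compound Hoxa-null) and Hoxa9,10,11+/-d9,10,11-/- (compound Hoxd-null). Each library was 1 pool from 3 animals, so no group has a replicate. No p-value was computed, a difference from WT is between single libraries, and libraries of different genotypes that share 2 mutant copies of a cluster were set beside the 3 others by their values only. The values are on a log2 scale, and for every gene the middle of its 6 values within a sex is 0. Uterus and vas deferens levels can therefore not be set against each other, and neither can the levels of different genes.

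Hox proteins of all paralog groups share similar DNA-binding homeodomains and gain specificity by binding DNA together with TALE homeodomain proteins. Pbx proteins bind directly beside a Hox protein, and Meis and Pknox proteins join as partners of Pbx and, for Meis, of posterior Hox proteins. In the embryo Meis and Pbx genes are themselves patterned along the body axis, and retinoic acid is a known inducer of Meis1 and Meis2.

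Relative depth differed by up to 1.34-fold among the female and 1.92-fold among the male libraries, and 17095 female and 17278 male genes were measured. Hoxa11 was at -0.86 and -1.23 in the uterus of Hoxa-null mice and their compound counterpart and at 0.86 to 1.91 in the other uterus libraries, and at -1.12 and -2.04 against 0.34 to 1.18 in the vas deferens. Hoxa10 was also lower in both libraries with 2 mutant Hoxa copies, at -0.67 and -0.02 against 0.02 to 0.82 in the uterus and at -0.48 and -0.56 against 0.21 to 0.33 in the vas deferens, while Hoxa9 overlapped in both tissues. Of the Hoxd genes, Hoxd9 was lower in both vas deferens libraries with 2 mutant Hoxd copies, at -1.11 and -1.03 against -0.17 to 0.85, and overlapped in the uterus. Hoxd11 overlapped in both tissues, and Hoxd10 overlapped in the vas deferens and was highest in the uterus of the Hoxd pair, at 0.78 and 0.46. The form of the mutations is not in the labels, so a level says only how much transcript was counted. Foxj1, a regulator of motile cilia, was at 5.72 in the oviduct and at 0.83 or below in the uterus libraries. Crisp4, an epididymal secretory gene, was at 5.69 in the epididymis and at 1.13 or below in the vas deferens libraries.

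The promoters of the 3 Meis genes are shown. Over the 5 vas deferens libraries Meis1 and Meis2 had a Pearson correlation of 0.990. Meis3 correlated with Meis1 at 0.814 and with Meis2 at 0.783 there, and at 0.071 and 0.046 with the epididymis added. Each runs from 250 bases before to 50 bases after the RefSeq start, 5′ to 3′ on the gene's own strand, on build GRCm38.p6, in lower case with the motif matches in capitals. A promoter was at hand for 5 of the 8 genes. Both strands were searched for TGATNNAT, known for Hox bound with Pbx, for TGACAG, known for Meis and Pknox, for TTTAT, a core of posterior Hox sites, and for TGATT, known for Pbx. The other 3 motifs were the CCAAT box, the GC box with the letters GGGCGG, and the TATA box with the letters TATAAA.
Meis1, minus strand, chr11:19018920-19019219: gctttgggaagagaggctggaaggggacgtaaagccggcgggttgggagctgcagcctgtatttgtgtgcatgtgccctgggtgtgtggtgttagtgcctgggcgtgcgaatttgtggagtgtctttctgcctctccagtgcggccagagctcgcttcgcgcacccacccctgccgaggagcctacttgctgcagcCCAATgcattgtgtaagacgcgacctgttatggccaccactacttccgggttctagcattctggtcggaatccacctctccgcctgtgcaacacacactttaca
Meis2, minus strand, chr2:116064570-116064869: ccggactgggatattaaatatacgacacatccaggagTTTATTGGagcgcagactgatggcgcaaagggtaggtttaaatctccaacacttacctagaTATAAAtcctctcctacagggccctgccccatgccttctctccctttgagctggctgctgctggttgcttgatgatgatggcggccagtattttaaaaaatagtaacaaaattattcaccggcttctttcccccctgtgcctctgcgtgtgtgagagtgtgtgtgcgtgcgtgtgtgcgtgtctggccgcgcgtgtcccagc
Meis3, plus strand, chr7:16175145-16175444: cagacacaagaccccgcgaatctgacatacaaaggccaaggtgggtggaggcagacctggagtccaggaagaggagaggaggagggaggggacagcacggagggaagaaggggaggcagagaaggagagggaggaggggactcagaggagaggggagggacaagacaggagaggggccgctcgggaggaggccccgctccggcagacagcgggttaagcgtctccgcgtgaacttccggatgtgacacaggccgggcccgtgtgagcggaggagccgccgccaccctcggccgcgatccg
The Meis1 window held 1 CCAAT at position -54 from the start, and the Meis2 window held 1 CCAAT at position -210. CCAAT was found in 37.4% of 32851 RefSeq promoters of the same length. The Meis2 window also held TATAAA, a motif of 13.6% of promoters, and 2 matches of TTTAT, a motif of 40% of promoters, of which 1 overlaps TATAAA. The Meis3 window held none of the 7 motifs, which says only that these letters are not in it. TGACAG and TGATNNAT, found in 19.2% and 8.85% of promoters, were in none of the 5 windows. GC content was 58.3% for Meis1, 51% for Meis2 and 66.7% for Meis3, beside a median of 52.7% over all promoters.

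Across the 5 genotypes the members spanned from very narrow to wide ranges. Pbx2 spanned 0.15 log2 units among the 5 uterus libraries and 0.37 among the 5 vas deferens libraries, and 98.1% and 85.1% of measured genes spanned at least as much. Pknox1, which encodes the TALE protein also called Prep1, spanned 0.50 and 0.28. At the other end, Pbx4 spanned 1.19 in the uterus and 2.05 in the vas deferens, and Meis1 spanned 1.46 in the vas deferens. The median gene spanned 0.73 in the uterus and 0.80 in the vas deferens, so Pbx2 and Pknox1 were steadier than most genes and Pbx4 was wider than most in both tissues.

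**Figure D1:**
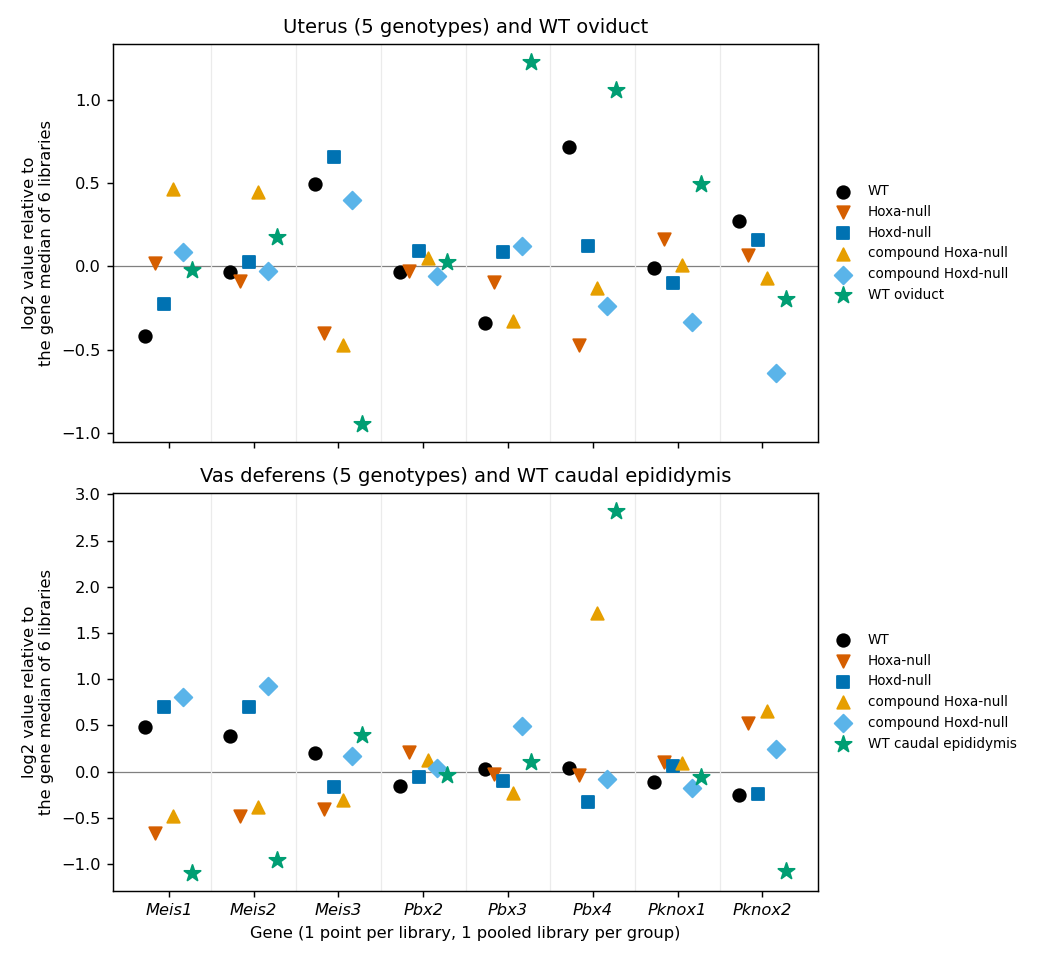
Deposited log2 values of the 8 genes, relative to the gene's median over the 6 libraries of its sex, with small library shifts removed; each point is 1 pooled library, in the female set above and the male set below. Meis1 and Meis2 are lower in both vas deferens libraries with 2 mutant Hoxa copies, Meis3 is lower in the uterus of the same 2 genotypes, and Pbx4 reaches 1.72 in the compound Hoxa-null vas deferens and 2.82 in the epididymis.

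Meis1 and Meis2 were lower in the vas deferens of mice with 2 mutant Hoxa copies. Meis1, which encodes a cofactor best known from blood and eye development, was at 0.48 in the WT vas deferens, -0.66 in Hoxa-null, 0.70 in Hoxd-null, -0.48 in compound Hoxa-null and 0.80 in compound Hoxd-null, and at -1.09 in the epididymis. Meis2, a close relative that acts in heart and limb development, was at 0.38, -0.48, 0.70, -0.38 and 0.92 in the same vas deferens libraries and at -0.95 in the epididymis. Both genes were low in the 2 libraries with 2 mutant Hoxa copies and high in the 3 others, with no overlap. The gap between these groups was -0.96 for Meis1 and -0.77 for Meis2, that is 1.94-fold and 1.70-fold between the nearest libraries. They were the 2 members with a gap of at least 1.5-fold in this comparison, and both were lower, as 5.2% of measured genes were by that much. This share covers only the side on which both genes were seen, and the share in either direction was not computed.

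Meis1 was 2.20-fold lower in the Hoxa-null than in the WT vas deferens, a difference of -1.14, and was the only one of the 8 genes at least 2-fold apart, as 19.8% of measured genes were. Meis2 was 1.82-fold lower, and in compound Hoxa-null Meis1 was 1.94-fold and Meis2 1.70-fold lower than in WT. In the Hoxd-null pair, that is Hoxd-null and compound Hoxd-null, both genes were above all 3 other libraries, with gaps of 0.22 for Meis1 and 0.32 for Meis2. Within the sequencing lane that held 3 of the mutant vas deferens libraries, Hoxd-null minus Hoxa-null was 1.36 for Meis1 and 1.18 for Meis2, and compound Hoxa-null minus Hoxd-null was -1.18 and -1.08. The WT vas deferens was on another lane of the same run and compound Hoxd-null on another run, so for these 2 the lane and the genotype cannot be told apart.

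Over the 6 male libraries the values of Meis1 and Meis2 had a Pearson correlation of 0.994, given as a description of libraries that share depth and tissue make-up. Over the 6 female libraries it was 0.723. Of the 50-base stretches in Meis1 transcripts 12.9% recur in another gene, mostly in the predicted gene Gm37818, so its count is uncertain where such reads could be split. For Meis2 this share was 0.325%.

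Smooth muscle genes had a similar course in the male libraries. The median of 9 contractile genes, all measured, was at 0.67 in the WT vas deferens, -0.25 in Hoxa-null, 0.89 in Hoxd-null, -0.41 in compound Hoxa-null and 0.18 in compound Hoxd-null, and at -0.98 in the epididymis. In 8 of the 9 genes both libraries with 2 mutant Hoxa copies were below the 3 others. Taken relative to this median, Meis1 differed from WT by -0.21 in Hoxa-null and 0.13 in compound Hoxa-null, and Meis2 by 0.06 and 0.32. The Hoxa-null pair then overlapped with the others for both genes, while compound Hoxd-null stood 0.81 above WT for Meis1 and 1.03 for Meis2. Of 13 marker lists used in this way, all scalings chosen after the data were seen, 4 gave overlap for both genes, namely smooth muscle, mesothelium, neuron and Schwann cell, and the uterus list. Relative to the 9 others, among them stromal fibroblast, simple epithelium and endothelium, the pair was still below. Some of the 9 could not give overlap, such as skeletal muscle, at 2.01 and 1.72 in the pair and 0.82 or less in the 3 others. The uterus list holds Hoxa11, a gene of the mutated block, so it is not a measure of cell content alone. All 5 of its measured genes were below the 3 others in the pair. Relative to the neuron and Schwann cell median, with 7 genes measured, Meis1 in Hoxa-null was 0.40 above WT. The part of smooth muscle or nerve content in the Meis1 and Meis2 levels was not tested, and in bulk RNA fewer cells of a type and less RNA per cell cannot be told apart.

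**Figure D2:**
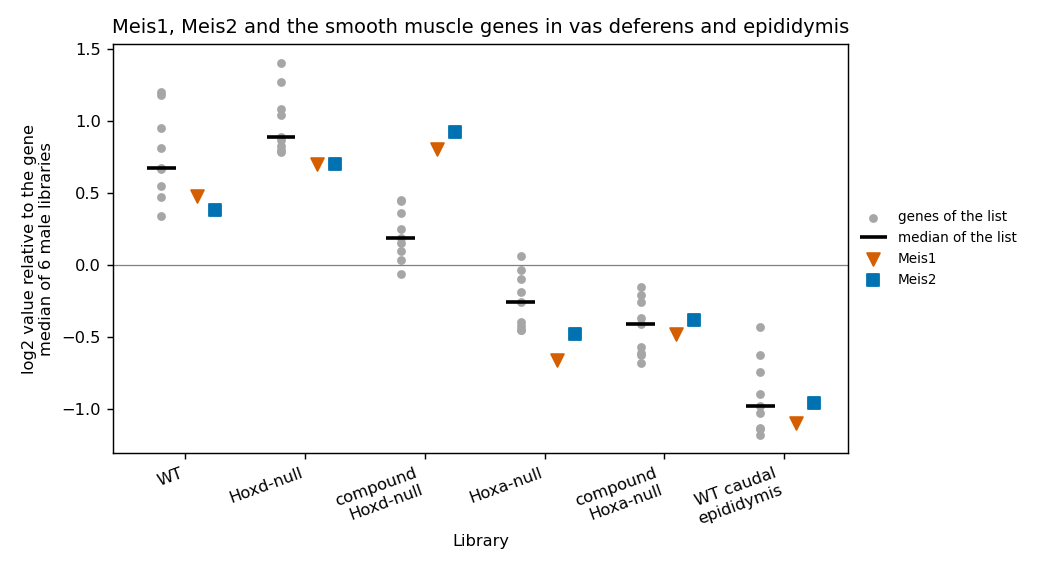
Meis1 (triangles), Meis2 (squares) and the 9 smooth muscle genes (grey points, median as a black bar) in the 6 male libraries, as log2 values relative to each gene's median over these libraries. All 3 are low in Hoxa-null, compound Hoxa-null and epididymis, whereas in compound Hoxd-null Meis1 at 0.80 and Meis2 at 0.92 lie above every smooth muscle gene.

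In the uterus neither gene was lower in the Hoxa-null pair. Meis1 was at -0.42 in WT, 0.02 in Hoxa-null, -0.23 in Hoxd-null, 0.47 in compound Hoxa-null and 0.09 in compound Hoxd-null, so that WT was the lowest of the 5 and compound Hoxa-null the highest. Meis2 was at -0.04, -0.09, 0.03, 0.44 and -0.03, and stood apart only in compound Hoxa-null, 1.39-fold above WT. The smooth muscle median of the uterus libraries was at 0.73 in compound Hoxa-null and between -0.17 and 0.07 in the 4 others. Relative to it, Meis1 was 0.09 above WT and Meis2 0.32 below WT in compound Hoxa-null.

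Meis3 was the member with the clearest separation in the uterus. This gene, known from hindbrain patterning, was at 0.49 in WT, -0.40 in Hoxa-null, 0.66 in Hoxd-null, -0.47 in compound Hoxa-null and 0.40 in compound Hoxd-null. The 2 libraries with 2 mutant Hoxa copies were below the 3 others by a gap of -0.79, or 1.73-fold, and their mean was 1.93-fold below that of the others. It was the only member with a gap of at least 1.5-fold there, and 2.39% of genes were lower by that much. This share covers only the side on which Meis3 was seen, and the share in either direction was not computed. Against WT alone Meis3 was 1.85-fold lower in Hoxa-null and 1.95-fold lower in compound Hoxa-null, just under the 2-fold line.

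Within 1 lane Hoxa-null minus WT was -0.89, and within the other compound Hoxa-null minus Hoxd-null was -1.13, so the direction was the same on both. Hand2, a regulator of the uterine stroma, was at 1.23 in WT and 1.12 in Hoxd-null, 0.27 in compound Hoxd-null, -0.27 in Hoxa-null and -0.72 in compound Hoxa-null, so its order was nearly that of Meis3. The stromal fibroblast list, with 10 of 10 genes measured, had medians of -0.32 in WT, -0.09 in Hoxa-null, 0.47 in Hoxd-null, 0.29 in compound Hoxa-null and 0.03 in compound Hoxd-null, with no such separation. Basal and squamous epithelium genes were highest in the same pair, with a median of 5.08 in Hoxa-null and 2.74 in compound Hoxa-null against 0.52 or less in the 3 others, and all 8 of the list were above. Relative to the median of the uterus list, which holds Hoxa11 and Hand2, Meis3 was 0.08 above WT in Hoxa-null and 0.10 above in compound Hoxa-null. Relative to stromal fibroblast genes the differences were -1.12 and -1.58, and relative to smooth muscle genes -1.03 and -1.77. These scalings were chosen after the data were seen. The part of tissue make-up in the Meis3 level was not tested. Its vas deferens values were 0.20 in WT, -0.40 in Hoxa-null, -0.16 in Hoxd-null, -0.30 in compound Hoxa-null and 0.17 in compound Hoxd-null. The Hoxa-null pair was again lowest, by a gap of only -0.14.

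Among the Pbx genes, Pbx2 was nearly level. It lay between -0.05 and 0.09 in the 5 uterus libraries and between -0.15 and 0.21 in the 5 vas deferens libraries. Of its 50-base stretches 5.16% also belong to the neighbouring gene Gpsm3. Pbx3 was at -0.34 in WT, -0.09 in Hoxa-null, 0.09 in Hoxd-null, -0.33 in compound Hoxa-null and 0.12 in compound Hoxd-null uterus, with the Hoxd-null pair highest by a gap of 0.18. Its vas deferens values lay between -0.23 and 0.02 in 4 libraries and at 0.50 in compound Hoxd-null.

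Pbx4, which in mice is known for its expression in the testis, had the largest differences between mutant and WT libraries of the 8 genes. In the uterus it was at 0.72 in WT, -0.47 in Hoxa-null, 0.12 in Hoxd-null, -0.13 in compound Hoxa-null and -0.24 in compound Hoxd-null. WT was above all 4 mutants, and Hoxa-null was 2.28-fold below WT, beside 13.9% of genes at least 2-fold apart, and no other member was 2-fold from WT in any uterus mutant. Against the mean of the 3 libraries without 2 mutant Hoxa copies the difference was -0.67 in place of -1.19, under 2-fold. The vas deferens values of Pbx4 were 0.04, -0.04, -0.33, 1.72 and -0.08, and only compound Hoxa-null stood apart. It was there 3.20-fold above WT, beside 22.8% of genes at least 2-fold apart, and 3.38-fold above Hoxa-null, which was sequenced on the same lane.

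Some genes of male germ cells were also high in the compound Hoxa-null vas deferens, and others were low. Ddx4, an RNA helicase of germ cells, was at 4.52 there, at 1.48 in Hoxa-null and at -1.48 or less in the 3 other vas deferens libraries. Ldhc, a testis lactate dehydrogenase, was at 4.57 there, and Acrv1, an acrosomal protein, at 3.27. Prm1, a protamine of late spermatids, was at -4.26 there and at 4.74 in the epididymis, so the list did not have 1 direction. Of 10 germ cell genes 9 were measured, with medians from -0.92 to 0.43 in the vas deferens libraries and 3.40 in the epididymis, and in the Hoxa-null pair 3 genes were above and 4 below the 3 others. The part of germ cell transcripts in the Pbx4 level was not tested.

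**Figure D3:**
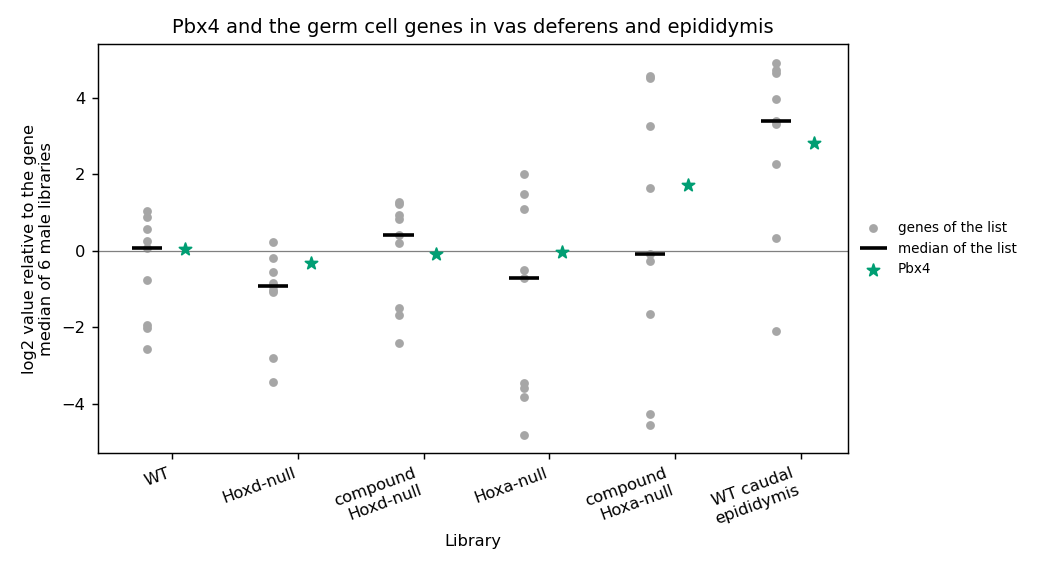
Pbx4 (stars) and the 9 measured germ cell genes (grey points, median as a black bar) in the 6 male libraries, as log2 values relative to each gene's median over these libraries. Pbx4 is at 1.72 in compound Hoxa-null and 2.82 in the epididymis, and between -0.33 and 0.04 in the 4 other libraries.

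The Pknox genes differed from each other. Pknox1 lay between -0.33 and 0.17 in the uterus and between -0.17 and 0.11 in the vas deferens. Pknox2, also called Prep2, was at -0.25 in WT, 0.53 in Hoxa-null, -0.24 in Hoxd-null, 0.65 in compound Hoxa-null and 0.24 in compound Hoxd-null vas deferens. Its Hoxa-null pair was highest by a gap of 0.28, the opposite side to Meis1 and Meis2, and was 1.72-fold and 1.88-fold above WT. In the uterus Pknox2 was highest in WT at 0.27, followed by Hoxd-null at 0.16, Hoxa-null at 0.07 and compound Hoxa-null at -0.07, with compound Hoxd-null lowest at -0.64.

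Separation by genotype was counted over all 8 genes and read against its share among all measured genes. In the uterus the Hoxa-null pair did not overlap with the 3 other libraries for 2 members, Meis3 below and Pknox1 above by 0.02, beside 28.1% of measured genes. The Hoxd-null pair did not overlap for 2 members, Pbx3 above and Pknox1 below by -0.09, beside 28.1%. For the vas deferens the Hoxa-null pair did not overlap for 6 members, beside 44.8%, with Meis1, Meis2 and Meis3 below and Pbx2, Pknox1 and Pknox2 above. The gaps of Pbx2 and Pknox1 there were 0.08 and 0.03. The Hoxd-null pair of the vas deferens did not overlap for 3 members, Meis1 and Meis2 above and Pbx4 below by -0.04, beside 25.2%. A gap of at least 1.5-fold was reached by no member in the Hoxd-null comparisons. In either direction 3.73% of genes reached it in the uterus and 2.08% in the vas deferens.

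These counts hung on single libraries. Without Hoxa-null, compound Hoxa-null or compound Hoxd-null the Hoxa-null pair of the uterus did not overlap with the rest for 4, 4 and 5 members, beside 60.0%, 51.5% and 39.8% of genes. For the Hoxd-null pair of the uterus the count was 4 without Hoxd-null and 4 without compound Hoxd-null, beside 52.8% and 58.6%. For the Hoxd-null pair of the vas deferens it was 7 without WT and 5 without Hoxd-null, beside 56.0% and 56.6%. Meis3 in the uterus and Meis1 and Meis2 in the vas deferens stayed separate in their Hoxa-null comparison. This follows from their separation among all 5 libraries and adds no support.

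At 2-fold few members passed in any mutant. In the uterus Pbx4 alone was called in Hoxa-null, beside 13.9% of genes, and none in Hoxd-null, compound Hoxa-null or compound Hoxd-null, beside 12.7%, 16.0% and 14.9%. Among vas deferens mutants Meis1 alone was called in Hoxa-null and Pbx4 alone in compound Hoxa-null, the latter beside 22.8%. None was called in Hoxd-null or compound Hoxd-null of the vas deferens, beside 8.75% and 13.6%. The 4 mutants of a tissue share 1 WT library. Taking the mutants in the order listed at the outset, the median absolute difference of the 8 genes from WT uterus was 0.23, 0.15, 0.41 and 0.39, against 0.25, 0.28, 0.32 and 0.26 over all genes. From WT vas deferens it was 0.49, 0.20, 0.64 and 0.26, against 0.36, 0.25, 0.41 and 0.36.

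**Figure D4:**
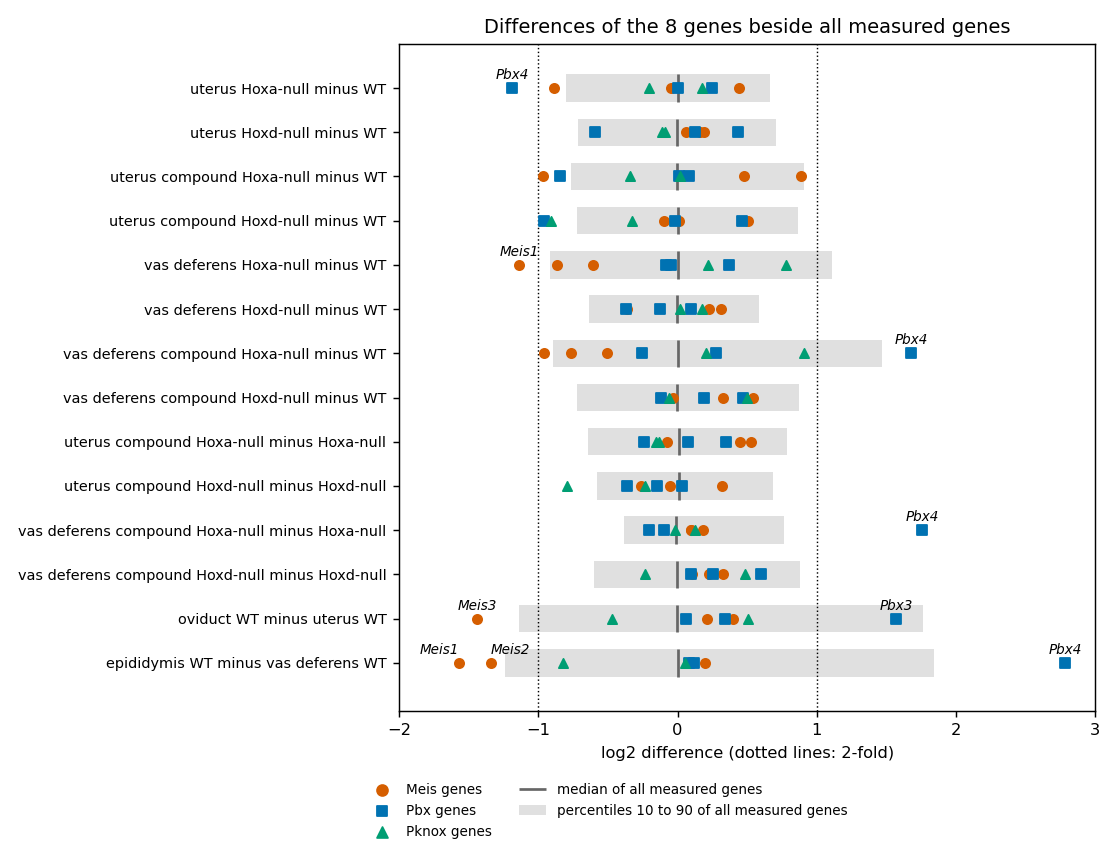
Log2 differences of the 8 genes in the 14 comparisons, over grey bars for percentiles 10 to 90 of all measured genes and a line for their median; Meis genes are circles, Pbx genes squares and Pknox genes triangles, and dotted lines mark 2-fold. Genes at least 2-fold apart are named, and most points fall within the grey bars.

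A mutant copy of the other cluster on top of a single mutant went with small differences in most members, Pbx4 apart. Compound Hoxa-null minus Hoxa-null lay between -0.24 and 0.53 in the uterus, with no member 2-fold apart beside 12.2% of genes. Compound Hoxd-null minus Hoxd-null lay between -0.80 and 0.32 in the uterus, with no member called beside 10.3%, and Pknox2 was the lowest. For the vas deferens compound Hoxa-null minus Hoxa-null was 1.76 for Pbx4, the only member called beside 10.1%, and between -0.21 and 0.18 for the 7 others. Compound Hoxd-null minus Hoxd-null lay between -0.24 and 0.60 there, with none called beside 12.4% and Pbx3 the highest.

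The neighbouring WT segments were compared with the WT uterus and vas deferens. In the oviduct Pbx3 was at 1.23, 2.97-fold above the WT uterus, and Meis3 at -0.95, 2.71-fold below it, and these were the 2 members called, beside 28.5% of genes. Pbx3 was 1.10 above the highest of the 5 uterus libraries and Meis3 0.47 below the lowest. Pbx4 at 1.06 and Pknox1 at 0.49 were also above all uterus libraries, while Meis1 at -0.02, Meis2 at 0.18, Pbx2 at 0.03 and Pknox2 at -0.20 lay within their range. A total of 64.6% of genes lay outside that range. The smooth muscle median was at -1.21 and the stromal fibroblast median at -1.40 in the oviduct, and their part was not tested.

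In the caudal epididymis Pbx4 was 6.88-fold above the WT vas deferens, while Meis1 was 2.97-fold and Meis2 2.53-fold below it. These 3 members were called, beside 29.4% of genes. Pbx4 at 2.82, Meis3 at 0.40, Meis1 at -1.09, Meis2 at -0.95 and Pknox2 at -1.08 were outside the range of the 5 vas deferens libraries, as 54.7% of genes were. Relative to the smooth muscle median the differences of Meis1 and Meis2 from the WT vas deferens were 0.08 and 0.31, so their direction turned. It also turned relative to skeletal muscle genes, and for Meis2 relative to neuron and Schwann cell genes. It was kept relative to 11 of the 13 marker lists for Meis1 and 10 for Meis2. Lists higher in the epididymis, such as germ cell at 3.40 against 0.08 in the WT vas deferens, could not turn it. Relative to the germ cell median the Pbx4 difference turned to -0.54. The oviduct and epididymis libraries came from another sequencing run than the WT uterus and vas deferens, so run and segment cannot be told apart.

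The Hoxa-null and compound Hoxa-null differences took opposite directions in the 2 tissues for 3 members, Meis1, Pbx3 and Pknox2, beside 28.8% of the 16046 genes measured in both sexes. Those of the Hoxd pair did so for 1 member, Pknox2, beside 24.1%. Meis1 was 0.44 and 0.89 above WT in the uterus and differed from it by -1.14 and -0.96 in the vas deferens. Pknox2 showed the reverse, with uterus differences of -0.21 and -0.34 and vas deferens differences of 0.78 and 0.91. Meis3 was below WT in both tissues, with uterus differences of -0.89 and -0.97 and vas deferens differences of -0.60 and -0.51. The difference between the tissues was not tested, since each value comes from 1 pair of libraries.

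**Figure D5:**
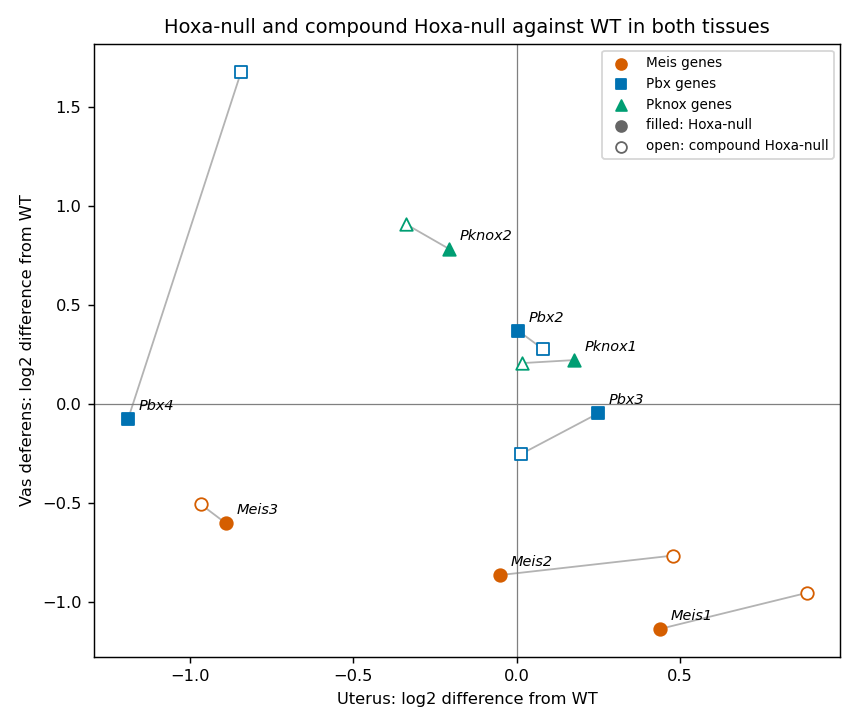
Log2 difference from WT in the uterus (x axis) and the vas deferens (y axis) for the 8 genes, in Hoxa-null (filled) and compound Hoxa-null (open), joined by a line for each gene. Meis3 is below WT in both tissues, Meis1 lies to the lower right and Pknox2 to the upper left.

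Other genes of the Hox cofactor pathway were counted from lists assembled for this tissue. Of 16 proteins that bind Pbx or Meis or act as co-regulators, 14 were measured. In the uterus 2 were 2-fold higher in Hoxa-null, Klf4 at 1.98 above WT and Foxc1, and none was 2-fold apart in the 3 other mutants. Among vas deferens mutants none was 2-fold apart in Hoxa-null, compound Hoxa-null or Hoxd-null, and 1 was higher in compound Hoxd-null. Genes at least 2-fold apart were 12.7% to 16.0% of all genes over the uterus mutants. Over the vas deferens mutants they were 8.75% to 22.8%. The list's median difference from WT lay between -0.0038 and 0.27 in the 8 comparisons, beside medians over all genes between -0.0047 and 0.0067. Klf4 is a transcription factor of epithelial differentiation that can act with Meis and Pbx proteins, and Foxc1 is a forkhead factor.

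Anterior Hox genes, which bind DNA with Pbx, were 2-fold higher more often than 2-fold lower in each mutant apart from the Hoxd-null uterus. Of 23 listed genes of paralog groups 1 to 8, 21 were measured, and in the uterus 10, 2, 11 and 9 of them were above WT by 2-fold in the mutants in the same order. The vas deferens counts were 6, 3, 8 and 10. Only the Hoxd-null uterus had any that were 2-fold lower, 3 genes, and there the list's median difference was -0.22. The median was 0.74 in Hoxa-null and 1.53 in compound Hoxa-null uterus, and 0.69 and 0.86 in the vas deferens. Genes at least 2-fold apart in either direction were 13.9%, 12.7%, 16.0% and 14.9% of all genes over the uterus mutants in the same order. Over the vas deferens mutants they were 19.8%, 8.75%, 22.8% and 13.6%. All counts of a tissue share its single WT library.

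Genes known as targets of Hox, Meis or Pbx proteins went in both directions. Of 29 listed, 25 were measured in the vas deferens. In Hoxa-null 3 were 2-fold higher and 4 lower, beside 19.8% of all genes in either direction. In compound Hoxa-null 6 were higher and 6 lower, beside 22.8%. Eya1, a kidney and ear development gene activated by Hox11 proteins in the mouse kidney, differed from WT by -2.23 in the Hoxa-null vas deferens and by -3.84 in the Hoxa-null uterus. In the uterus every mutant was below WT. Eya1 was at 3.21 in WT, 1.52 in Hoxd-null, -0.55 in compound Hoxa-null and -0.09 in compound Hoxd-null uterus. Itgb3, the beta-3 integrin and a target of Hoxa10 in endometrial cells, differed in the vas deferens by -2.24 for Hoxa-null and by -2.47 for compound Hoxa-null. Its uterus values were -0.03 in WT, 0.54 in Hoxa-null and 0.21 in compound Hoxa-null, the other direction. In the uterus 26 were measured, with 4 higher and 5 lower in Hoxa-null and 6 higher and 6 lower in compound Hoxa-null. Genes at least 2-fold apart there were 13.9% and 16.0% of all genes.

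The retinoic acid list held 18 genes, of which 15 were measured in the male and 17 in the female libraries. Of these, 3 were 2-fold higher in Hoxa-null vas deferens and 4 with the compound genotype, none lower. Genes at least 2-fold apart in either direction were 19.8% and 22.8% of all genes there. The higher genes included Cyp26b1, which breaks down retinoic acid, at 1.72 and 1.80 above WT. Its WT value of -1.37 was the lowest, and Hoxd-null at -0.35 and compound Hoxd-null at -0.43 were also above WT. In the uterus 2 were 2-fold higher and 3 lower in Hoxa-null, beside 13.9% of all genes. In compound Hoxa-null uterus 1 was higher and 4 lower, beside 16.0%. Crabp2, a carrier of retinoic acid, differed there by 3.31 and 2.80. Cyp26a1, another enzyme of breakdown, was lower than WT in all 4 mutants, by -3.14, -3.26, -3.64 and -4.03 in the order of the mutants. TALE genes outside the Meis and Pbx families were 9, with 7 measured in the uterus and 6 in the vas deferens. In Hoxa-null uterus 1 of these was 2-fold higher and 1 lower, beside 13.9% of all genes, and the list's median difference was -0.41. Irx5 differed from WT uterus by 2.96 for Hoxa-null and by 3.33 for compound Hoxa-null. It was also higher in compound Hoxd-null uterus, at -0.45 against -2.51 in WT and -2.38 in Hoxd-null. For the vas deferens Tgif1, a co-repressor that competes with Meis-type binding, was 1.61 and 1.43 above WT in the same genotypes. Mkx, a tendon and muscle regulator, differed from WT there by -1.31 and -1.32.

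The genes most like each member were ranked by the lower of the Pearson correlations over the 6 female and the 6 male libraries, among 4751 genes that spanned at least 1 log2 unit in both sets. For Meis1 they were Rasgrf2, Mmrn1 and Gria3, with lower correlations of 0.936, 0.932 and 0.927. For Meis2 they were Smad9, Mapk11 and Cdh6, at 0.928, 0.910 and 0.879. For Meis3 they were Sfrp2, F2r and Clca2, at 0.940, 0.905 and 0.893. Sfrp2 encodes a secreted Wnt inhibitor and F2r a thrombin receptor.

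For Pbx4 the nearest genes were Clic6, Tmem202 and Fhl4, at 0.909, 0.904 and 0.900, and Fhl4 is known as a testis gene. For Pbx3 they were Sftpc, Dyx1c1 and Myo1h, with a highest value of 0.885. For Pknox2 they were Accn4, Slc6a13 and Cox8b, from 0.896 down to 0.836, and for Pknox1 Mid1ip1, Klhl25 and Fbxo43, from 0.867 to 0.810. Pbx2 had no close match, with Kcne1l first at 0.749. With 6 libraries a set, such values come easily among many genes and describe likeness of pattern only.

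By position on build mm9, as the deposited files give it, Meis1 starts at 18780431 on chromosome 11, Meis2 at 115688805 and Pbx3 at 34027429 on chromosome 2, and Meis3 at 16760729 on chromosome 7. Pbx2 and Pknox1 are both on chromosome 17, starting at 34729416 and 31701704. Pbx4 starts at 72356603 on chromosome 8 and Pknox2 at 36698567 on chromosome 9. None of these chromosomes carries the Hoxa cluster, and Meis2 and Pbx3 share chromosome 2 with the Hoxd cluster.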

How the data were processed

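RNA was measured in 12 mouse libraries, each from 3 pooled animals. The RNA came from an RNeasy extraction followed by TruSeq library preparation, per the labels. TopHat and the build mm9 are named in the submitters' processing notes. How reads were counted, with which strand setting, and how they were normalised is not given in the sources used here. The values are log2 values as deposited by the authors, with each gene's median over the 6 libraries of a sex at 0, and no counts or totals were given, so the read level and counting precision of the 8 genes are unknown.

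Low values lie on steps, from which the value of 1 read per library, the relative depth and the levels of low genes were read. Values had been raised to a floor of 1 normalised read. Library shifts of at most 0.0021 (female) and 0.0061 (male) log2 units, taken as the median over measured genes, were removed. Genes below 20 normalised reads in their highest library and genes with the same value throughout were left out. The design had foreseen linear values with a pseudocount, which was not needed. Differences between libraries were called at 2-fold, and a pair of libraries counted as separate when both lay beyond all 3 others of the tissue. The steps, the minimum and the calls were checked on simulated data. With 1 library a genotype no p-value was computed.

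The members and lists were chosen with earlier results of these data known. All 8 members were named, from each list up to 4 measured genes with the largest difference per comparison, and 3 most alike genes per member. The Hoxa and Hoxd genes, Foxj1, Crisp4, Hand2, the germ cell genes and Itgb3 in the uterus were named after their values were seen, as checks of tissue, genotype and cell content. Alternatives were unshifted values, no minimum, a minimum of 50, 1.5-fold, the mean of the 3 libraries without 2 mutant copies as reference and each library left out. Promoters are from RefSeq, and shared 50-base stretches were counted in GENCODE transcripts. Python 3.11.15, numpy 2.4.6 and pandas 2.3.3 were used.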

Additional observations from a re-analysis of the deposited data

Results flagged for a closer look

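For each member and each cluster, the direction against WT in both libraries with 2 mutant copies was compared between the uterus and the vas deferens. In 4 of 16 such relations both uterus libraries lay on 1 side of WT and both vas deferens libraries on the other. The share was 28.8% for the Hoxa and 24.1% for the Hoxd cluster among the 16046 genes measured in both sexes. Each rests on single libraries and the difference between the tissues was not tested.

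For the Hoxa cluster, Meis1 differed from WT by 0.44 in Hoxa-null and 0.89 in compound Hoxa-null uterus, and by -1.14 and -0.96 in the vas deferens. Pknox2 differed by -0.21 and -0.34 in the uterus and by 0.78 and 0.91 in the vas deferens. Pbx3 differed by 0.25 and 0.01 in the uterus and by -0.05 and -0.26 in the vas deferens, most of them small. For the Hoxd cluster, Pknox2 differed by -0.12 in Hoxd-null and -0.91 in compound Hoxd-null uterus, and by 0.02 and 0.50 in the vas deferens.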

How the results depend on the processing

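Every count of members at 2-fold stayed as given without removing the shifts, with no minimum and with a minimum of 50 normalised reads. These settings could not have changed the counts and so do not test them. A minimum leaves out only genes whose level could be read, and the read levels of the members are unknown. The shifts were at most 0.0061 log2 units, and the difference nearest to 2-fold was -0.967, for Meis3 in compound Hoxa-null uterus. At 1.5-fold the members apart from WT became 2 for Hoxa-null, 1 for Hoxd-null, 3 for compound Hoxa-null and 2 for compound Hoxd-null uterus, and 4 for each of the vas deferens libraries with 2 mutant Hoxa copies. The shares of all genes were 25.3%, 25.3%, 29.5% and 27.1% in the uterus and 34.7% and 38.0% in these vas deferens libraries. At 1.5-fold compound Hoxd-null against Hoxd-null gave 1 member in the uterus and 1 in the vas deferens, beside 22.3% and 26.4%. With the mean of the 3 libraries without 2 mutant copies as reference, the Hoxa-null uterus had 0 members apart by 2-fold. In the vas deferens Hoxa-null had 2, compound Hoxa-null 3 and compound Hoxd-null 2. The share of all genes was not computed with this reference. The 2 in compound Hoxd-null were Meis1 at 1.02 and Meis2 at 1.08, in place of 0.325 and 0.539 from WT. Their reference holds both libraries with 2 mutant Hoxa copies, where these genes were low. A gap of at least 1.5-fold left 1 and 0 separate members for the Hoxa-null and Hoxd-null uterus pairs, and 2 and 0 for those of the vas deferens.

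Leaving out 1 library at a time gave 3 to 5 separate members for the uterus Hoxa-null pair and 2 to 4 for the uterus Hoxd-null pair. The vas deferens pairs gave 6 to 8 and 3 to 7. The shares of all genes were 38.0% to 60.0% and 38.3% to 58.6% in the uterus, and 54.6% to 62.1% and 28.8% to 56.6% in the vas deferens. Fewer libraries make separation easier, as the shares of all genes show. Scaling to marker list medians was chosen after the data were seen. Epididymis minus WT vas deferens reversed to 0.0797 for Meis1 and 0.3128 for Meis2 relative to smooth muscle, to 0.8703 and 1.1034 relative to skeletal muscle, to 0.1593 for Meis2 relative to neuron and Schwann cell genes, and to -0.5363 for Pbx4 relative to germ cell genes. Hoxa-null minus WT vas deferens reversed for Meis1 to 0.4019 relative to neuron and Schwann cell genes and to 0.0914 relative to the uterus list. The uterus list holds Hoxa11, a gene of the mutated block. No paired analysis was possible because each group has 1 library. Depth differed between libraries, total counts are unknown, and differences among single pools cannot be set against animal-to-animal spread.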
